A study of Mus musculus with 10 samples.

Results

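The genes described here are 10 genes of intestinal goblet cells: Muc2, Fcgbp, Clca1, Zg16, Tff3, Spink4, Reg4, Agr2, Spdef and Atoh1. They were chosen by name, as the protein-coding row of each symbol, and are 10 of the 56748 genes in the table. Each had reads in at least 7 of the 10 libraries, and 7 of the 10 reached the mean level of 0.5 FPKM (fragments per kilobase of gene length, scaled per library) that was needed for testing. The libraries were polyadenylated RNA of mouse colon organoids, epithelial cultures grown from crypt cells. In one group the organoids received vehicle (5 libraries, replicates 1 to 5), and in the other WY-14643, a synthetic agonist of the nuclear receptor PPARα, at 100 µM (5 libraries, replicates 6 to 10). In both groups treatment lasted 2 days and began 3 days after passage. The genotype, strain and sex of the mice and the vehicle are not given in the labels. Nothing in the labels ties a replicate to its own mouse, culture or date, and the p-values therefore speak of variation among libraries that may be only technical.

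Goblet cells are secretory cells of the intestinal lining that make and release the mucus layer, which in the colon keeps bacteria away from the epithelium. Atoh1, a transcription factor held down by Notch signalling, commits a progenitor to the secretory lineage, and Spdef, an Ets family factor, drives goblet cell maturation. The mature cell folds the very large mucin Muc2 in the endoplasmic reticulum with the help of Agr2, a protein disulfide isomerase relative, and releases it with the proteins Fcgbp, Clca1, Zg16, Tff3 and Spink4.

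Reads assigned to genes numbered 15618244 to 29271304 per library. The mitochondrial share of reads was 0.792% to 2.58%, lowest in vehicle replicate 3 (0.835%) and WY-14643 replicate 8 (0.792%). Epithelial transcripts dominated: markers of absorptive colonocytes summed to 2038 to 3640 FPKM with vehicle and 2111 to 4872 FPKM with WY-14643. Much of these sums was Krt8, at 938 to 2694 FPKM. Within the list Car1 ranged from 21.0 to 1626 FPKM, while Car4 was at 0 in all libraries. Marker sums for fibroblasts, immune cells and endothelial cells stayed at or below 0.458 FPKM in every library. The libraries fell into 5 pairs, vehicle replicate 1 with WY-14643 replicate 6 and so on to vehicle replicate 5 with WY-14643 replicate 10. The deviations of paired libraries from their group means correlated at r = 0.423 to 0.782 across genes, against at most 0.0602 for unpaired libraries of different groups. No label states this pairing.

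The goblet cell genes were expressed at low to moderate levels, and none of the 7 tested was called changed by WY-14643 in any fit. Agr2 stood highest, followed by Tff3 and Muc2, and Spdef, Atoh1 and Reg4 lowest, with at most 65 reads in any library. The levels differed more between pairs of libraries than between vehicle and WY-14643. Muc2 and Clca1 were lower with WY-14643 in 5 of 5 pairs, but neither passed the adjusted threshold. In some of these pairs the intervals for counting error of the paired libraries overlapped. In bulk RNA, fewer goblet cells and less RNA per goblet cell cannot be told apart.

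Muc2, the gel-forming mucin that makes up the colonic mucus, lies at chr7:141276583-141308430 on the plus strand (coordinates here and below are those of the table, build mm39). Its level in vehicle replicates 1 to 5 was 1.07, 10.03, 5.77, 6.57 and 7.95 FPKM, and in WY-14643 replicates 6 to 10 it was 0.665, 5.99, 5.51, 4.03 and 6.79 FPKM. The pair of vehicle replicate 1 and WY-14643 replicate 6 stood far below the other 4 pairs, and the groups overlapped. Between 147 and 4052 reads stood behind each value, so counting error was small beside these differences. The means were 6.28 ± 3.33 FPKM with vehicle and 4.60 ± 2.42 FPKM with WY-14643 (SD, n = 5 each).

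Clca1, a secreted metalloprotease-like component of mucus, lies at chr3:144709578-144738537 on the minus strand. Its level in vehicle was 3.20, 0.857, 5.32, 8.01 and 0.654 FPKM, and in WY-14643 it was 1.97, 0.757, 5.30, 4.79 and 0.400 FPKM. Replicates 3 and 4 of vehicle and 8 and 9 of WY-14643 were high, those of pairs 2 and 5 were low, and the groups overlapped. Fcgbp, a mucus protein that binds the Fc part of IgG, lies at chr7:27770661-27820287 on the plus strand. It measured 2.30, 1.93, 3.04, 3.40 and 1.75 FPKM with vehicle and 2.35, 2.67, 4.40, 2.15 and 1.86 FPKM with WY-14643. It was the steadiest of the secreted mucus proteins, with all 10 libraries between 1.75 and 4.40 FPKM, and its groups overlapped.

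Tff3, a trefoil peptide that acts in epithelial repair, lies at chr17:31344280-31348620 on the minus strand. Vehicle libraries held 9.60, 5.52, 25.3, 11.1 and 0.473 FPKM, and WY-14643 libraries held 5.11, 6.04, 27.5, 8.09 and 0.0876 FPKM. Both libraries of the third pair were high and both of the fifth pair were low, whatever the treatment. In the fifth pair these values rest on 5 reads in vehicle and 1 read in WY-14643, with exact Poisson 95% intervals of 0.154 to 1.10 and 0.00222 to 0.488 FPKM that cover counting error only. The same pair of libraries had 2371 and 2187 reads of Muc2.

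Zg16, a lectin-like protein that binds the cell wall of Gram-positive bacteria, lies at chr7:126649328-126686500 on the minus strand. It measured 1.81, 0.877, 0.716, 1.97 and 0.185 FPKM with vehicle and 0.501, 0.332, 4.01, 1.70 and 0.137 FPKM with WY-14643. WY-14643 replicate 8 stood above all other libraries at 84 reads, against 19 reads in its vehicle partner, and in the remaining 4 pairs WY-14643 was the lower. Spink4, a Kazal-type peptidase inhibitor of goblet cells, lies at chr4:40920052-40931395 on the plus strand. It measured 0.612, 0.361, 1.29, 0.931 and 0.293 FPKM with vehicle and 0, 0.250, 1.89, 0.824 and 0.272 FPKM with WY-14643, from 0 to 15 reads. Both of these genes overlapped between the groups. The 0 of Spink4 in WY-14643 replicate 6 allows up to 0.396 FPKM by a limit of 3 reads, which is used for all counts of 0 here.

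Agr2 lies at chr12:36042906-36054086 on the plus strand. Its level in vehicle was 16.7, 21.6, 32.7, 22.6 and 27.4 FPKM, and in WY-14643 it was 8.10, 20.1, 28.1, 17.4 and 32.8 FPKM. As with Muc2, the first library of each group was the lowest, and the groups overlapped.

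The 3 genes below the test's level were Spdef, Atoh1 and Reg4. Spdef (chr17:27933326-27947929, minus strand) measured 0.304, 0.448, 1.05, 0.385 and 0 FPKM with vehicle and 0.0820, 0.517, 1.69, 0.268 and 0.0187 FPKM with WY-14643. Atoh1 (chr6:64706109-64708229, plus strand) measured 0.248, 0.244, 0.603, 0.150 and 0.0660 FPKM with vehicle and 0.238, 0.197, 0.763, 0.265 and 0.0814 FPKM with WY-14643. Both factors were highest in the third pair and lowest in the fifth, and their groups overlapped. Reg4, a secreted C-type lectin that also marks deep crypt secretory cells of the colon, lies at chr3:98129472-98144064 on the plus strand. It measured 0, 0.135, 0.557, 0.248 and 0 FPKM with vehicle and 0.185, 0.233, 1.35, 0.660 and 0 FPKM with WY-14643, from at most 23 reads. Again the third pair was the highest, and the groups overlapped. By the limit of 3 reads a count of 0 allows up to 0.0607 FPKM for Spdef in vehicle replicate 5, and up to 0.172, 0.137 and 0.127 FPKM for Reg4 in vehicle replicates 1 and 5 and WY-14643 replicate 10.

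**Figure D1:**
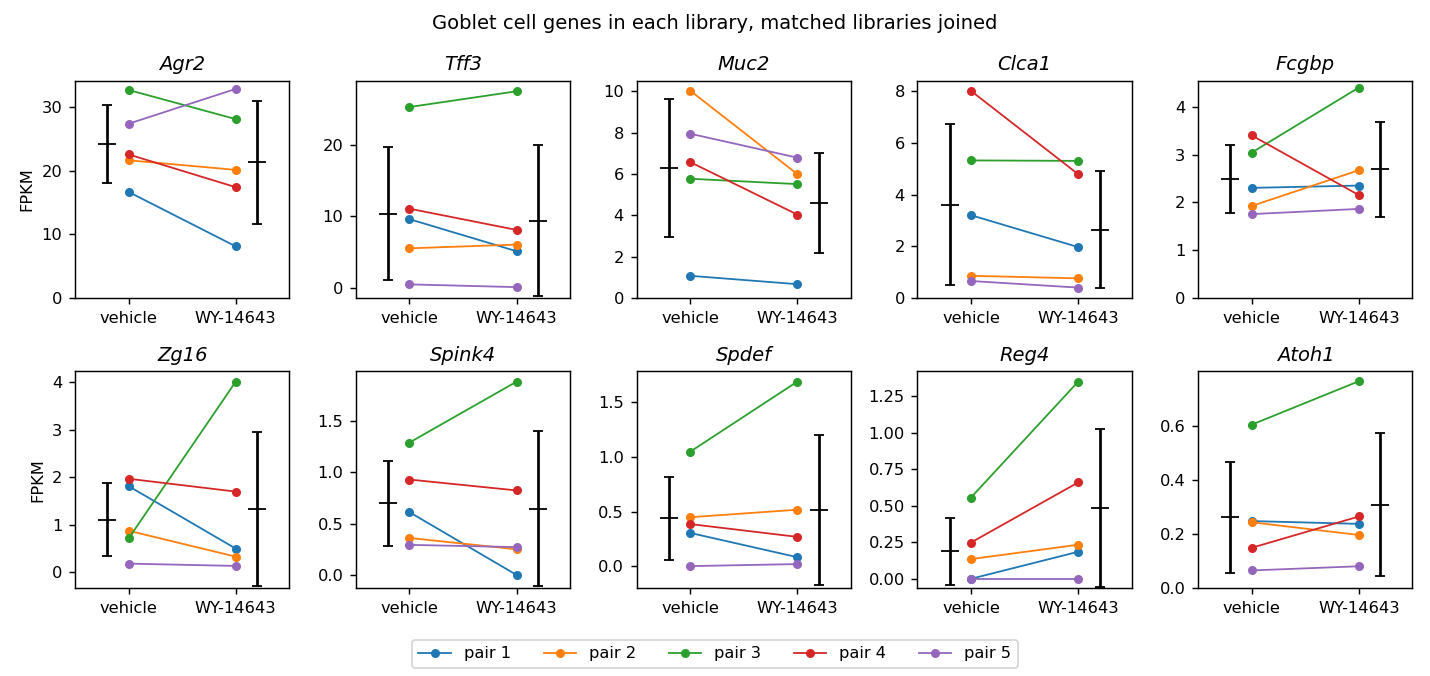
FPKM of each of the 10 goblet cell genes in every library, 1 point per library, with paired libraries joined and coloured alike and the group mean ± SD as a black bar beside them. Differences between pairs exceed those between vehicle and WY-14643 for most genes, and for Tff3 the fifth pair lies below 0.5 FPKM while the third lies above 25.

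On the FPKM scale, which corrects for gene length, Agr2 was above Tff3 in 10 of 10 libraries and Fcgbp above Zg16 in 10 of 10. The neighbours between them did not keep their order: Tff3 was above Muc2 in 7 libraries, Muc2 above Clca1 in 6 and Clca1 above Fcgbp in 5. Among the low genes Zg16 was above Spink4 in 7 libraries, Spink4 above Spdef in 7, Spdef above Reg4 in 7 and Reg4 above Atoh1 in 4. The summed level of the 10 genes was 35.8 to 76.3 FPKM with vehicle and 19.2 to 80.5 FPKM with WY-14643, and they took 0.00535% to 0.0212% of all reads.

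In the planned comparison (limma on log2(FPKM + 1), all 10 libraries, no pairs) 0 of the 7 tested goblet cell genes passed an adjusted p of 0.05 in either direction, where 0% of the 13607 tested genes did. At an unadjusted p of 0.05, 0 of the 7 passed, against 1.51% of all genes, and voom on the recovered reads gave 0 by either threshold. For 0 of the 7 did the groups stay apart, which 0.243% of all genes did with WY-14643 higher and 0.11% with WY-14643 lower. Muc2 had a log2 fold change (WY-14643 over vehicle) of -0.36 ± 0.51 (SE), with a 95% interval of -1.50 to 0.77. Tff3 had -0.28 with an interval of -2.26 to 1.69, and Clca1 had -0.29 with an interval of -1.56 to 0.97. All 3 intervals span both directions by wide margins. Agr2 had -0.27 (-0.99 to 0.44), Spink4 -0.12 (-0.74 to 0.51), Zg16 -0.01 (-0.92 to 0.90) and Fcgbp 0.07 (-0.36 to 0.50). Without pairs, the values of all tested genes but Agr2 were larger in size with a pseudocount of 0.1 and with voom. Tff3, Spink4 and Zg16 moved most. Tff3 had -0.54 and -0.74, Spink4 -0.59 and -0.64, and Zg16 -0.20 and -0.27. Muc2 had -0.47 and -0.48, Clca1 -0.43 and -0.39, Fcgbp 0.09 and 0.11, and Agr2 -0.29 and -0.27. Voom with pairs as a block gave -0.16 for Tff3, -0.21 for Spink4 and 0.19 for Zg16. Single libraries set several of these directions: Muc2 was 0.029 and Agr2 0.017 without WY-14643 replicate 6, Clca1 was 0.024 when vehicle replicate 4 was left out, and Tff3 was 0.37 when WY-14643 replicate 10 was. The median over the 7 genes was -0.27, against -0.01 over all genes tested, and 6 of the 7 had a log2 fold change below 0, against 52.9% of all genes. The number below 0 was 5 with matched voom and 4 with library weights, and the mean FPKM itself was higher with WY-14643 for Zg16 (1.11 and 1.34) as well as Fcgbp. The median rested on single libraries: it was 0.029 without WY-14643 replicate 6, -0.011 without WY-14643 replicate 10, -0.18, -0.065 and -0.062 without vehicle replicates 1, 3 and 4, and -0.093 without WY-14643 replicate 7. With a pseudocount of 0.1 it was -0.43.

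With the pairs as a block, limma narrowed the intervals and still called 0 of the 7, where it called 0.287% of all genes higher and 0.0294% lower. Muc2 had a standard error of 0.10 and an interval of -0.59 to -0.14. Its WY-14643 level was 62.2%, 59.7%, 95.5%, 61.4% and 85.4% of that of its vehicle partner in pairs 1 to 5. The adjusted p of Muc2 in that limma fit was 0.233 (unadjusted 0.00706), and it was 0.0821 with voom on the recovered reads. Clca1 had an interval of -0.54 to -0.04 and stood at 61.5%, 88.4%, 99.7%, 59.8% and 61.2% of its partner, with a limma adjusted p of 0.390 in the matched fit and 0.167 with voom. The third pair showed almost no difference in either gene, and the Poisson 95% intervals of its libraries overlapped for both. For Clca1 they also overlapped in the second pair (94 reads with vehicle and 48 with WY-14643) and the fifth (53 and 35 reads). Muc2 and Clca1 were the 2 of 7 tested genes that were lower in 5 of 5 pairs, against 6.09% of all genes, and 0 were higher in 5 of 5, against 5.63%. By unadjusted p these same 2 of 7 passed 0.05 with limma, against 10.6% of all genes, and with voom, against 11.3%.

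The other genes had no single direction across pairs. Agr2 was lower in 4 of 5 pairs, and its matched interval was -0.66 to 0.11. Tff3 was lower in 3 of 5, with a matched interval of -0.62 to 0.06. Zg16 and Spink4 were lower in 4 of 5, while Fcgbp was higher in 4 of 5, with a matched interval of -0.24 to 0.38. Without the filter on low levels the matched fit could also be made for the 3 lowest genes. Reg4 then had a log2 fold change of 0.27 (0.03 to 0.52) and was higher in 4 pairs and at 0 in both libraries of the fifth, with a limma adjusted p of 0.769. Spdef had 0.02 and Atoh1 0.05. Counted by pair over all 10 genes, WY-14643 was lower for 8, 6, 3, 8 and 5 genes in pairs 1 to 5.

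**Figure D2:**
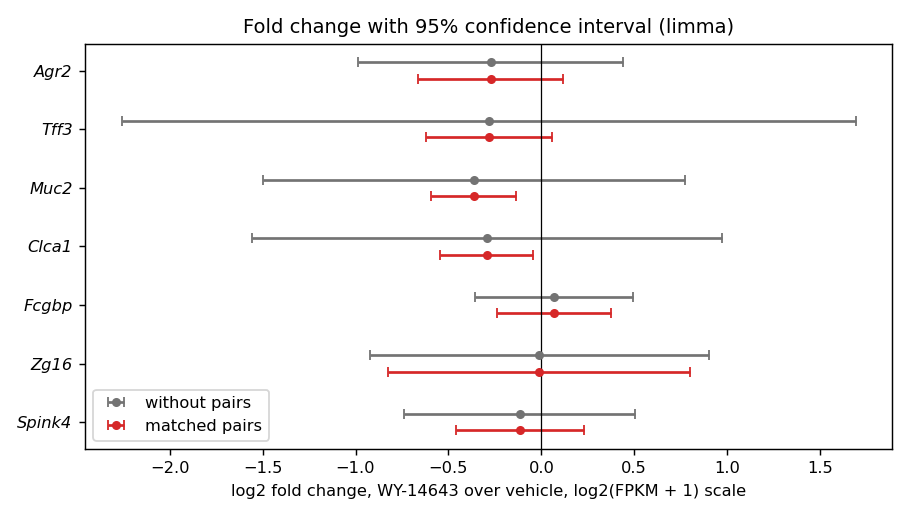
Log2 fold change of WY-14643 over vehicle on the log2(FPKM + 1) scale for the 7 tested goblet cell genes, with 95% confidence intervals from limma without pairs (grey) and with pairs as a block (red). Only the matched intervals of Muc2 (-0.59 to -0.14) and Clca1 (-0.54 to -0.04) lie wholly below 0, and neither gene passed the adjusted threshold.

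Most of the spread in these genes lay between pairs. For the 7 tested genes, the share of variance between pairs had a median of 84.4% (59.7% for Zg16 to 97.6% for Tff3), close to the median of 83.6% over all genes. Their spread itself was larger, with a median SD of 0.69 on the log2(FPKM + 1) scale against 0.23 over all genes. Vehicle replicate 3 held the highest value of its group for 6 of the 10 genes, and its partner WY-14643 replicate 8 for 8 of the 10. Vehicle replicate 5 held the lowest value for 8 of the 10, with Reg4 tied at 0, and its partner WY-14643 replicate 10 for 7. The third pair also had the lowest mitochondrial share of reads (0.835% and 0.792%, against 1.51% to 2.58% in the other libraries), and whether this plays a part in the levels was not tested.

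Muc2 and Agr2 did not follow the other 8 genes across the libraries. Muc2 correlated with Agr2 at r = 0.79 over the 10 libraries (log2(FPKM + 1)). That value leaned on the first pair, where both genes were lowest in their groups (Muc2 1.07 and 0.665, Agr2 16.7 and 8.10 FPKM). With the other 8 genes Muc2 had r between -0.21 and 0.23, and Agr2 between -0.06 and 0.51. The 8 correlated among themselves at r = 0.55 to 0.92 in all 28 combinations, with a median of 0.77 and the highest value for Spdef with Atoh1. These are descriptions over 10 libraries that share 5 pairs and their depths, some on very few reads, and the grouping into 2 and 8 was made after the values were seen. The contrast is plain in the ratio of Tff3 to Muc2 in FPKM, which was 8.97, 0.550, 4.38, 1.68 and 0.0595 in vehicle and 7.68, 1.01, 4.99, 2.01 and 0.0129 in WY-14643. The first pair was rich in Tff3 relative to Muc2, the fifth pair poor in it, and paired libraries of the 2 treatments resembled each other.

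**Figure D3:**
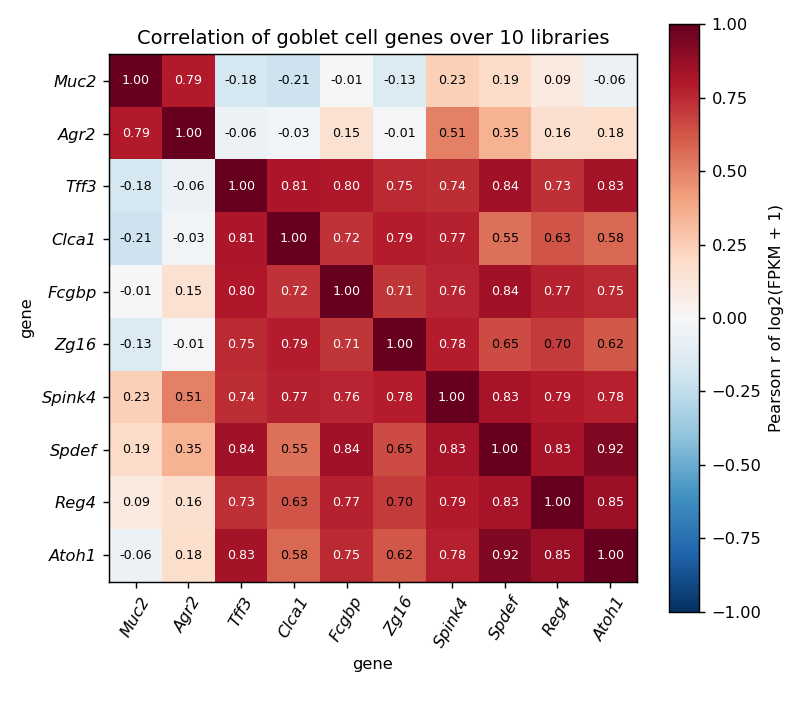
Pearson r of log2(FPKM + 1) over the 10 libraries for every combination of the 10 goblet cell genes, printed in each cell and coloured from blue (-1) to red (1). Muc2 and Agr2 form a red block of their own (0.79), and the other 8 genes form a second block (0.55 to 0.92). The value of 0.79 leans on the first pair, where both genes were lowest in their groups.

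Of the 12 tested genes in a list of other goblet cell genes, 2 had r above 0.5 with Muc2, 4 with Tff3, 0 with both and 6 with neither. Over all 13607 tested genes these shares were 20.6% with Muc2, 14.5% with Tff3, 0.162% with both and 65.0% with neither. Ern2, an epithelial sensor of unfolded proteins in the endoplasmic reticulum, correlated with Muc2 at r = 0.92 and with Tff3 at -0.24. It measured 2.31, 9.10, 7.05, 4.64 and 7.61 FPKM with vehicle and 2.15, 9.07, 7.0, 4.36 and 8.99 FPKM with WY-14643, lowest in the first pair like Muc2. Creb3l1, a membrane-bound transcription factor of secretory cells, correlated with Tff3 at r = 0.84 and with Muc2 at 0.29. It measured 1.68, 2.86, 4.33, 5.17 and 1.34 FPKM with vehicle and 1.62, 2.50, 4.49, 2.78 and 1.01 FPKM with WY-14643, lowest in the fifth pair like Tff3. Both genes were picked for this description after their values were seen. Of the 24 tested genes in a list around mucin O-glycosylation, 10 had r above 0.5 with Muc2, 7 with Tff3, 0 with both and 7 with neither. Not all of them are enzymes of that pathway, such as the sulfate transporter Slc26a2. All these counts take positive r only, so a gene under neither may run against Muc2 or Tff3. Among these genes the lowest r with Muc2 were those of Galnt1 (-0.84) and Galnt2 (-0.83), both counted under neither. Both were highest in their groups in the first pair (Galnt1 44.9 and 42.0 FPKM, Galnt2 16.8 and 16.9 FPKM), where Muc2 was lowest. No r of Muc2 with Ern2 or these genes was computed without the first pair.

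**Figure D4:**
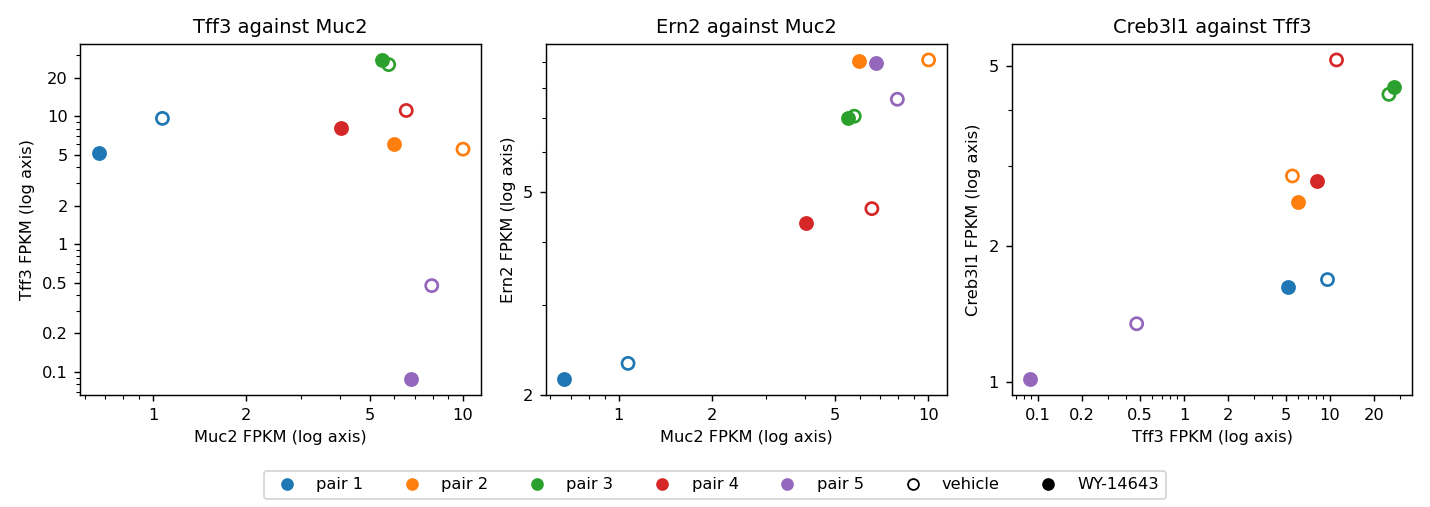
FPKM on log axes of Tff3 against Muc2, Ern2 against Muc2 and Creb3l1 against Tff3, 1 point per library, coloured by pair, open for vehicle and filled for WY-14643. Pair 1 is low in Muc2 and Ern2, and pair 5 is low in Tff3 and Creb3l1 while Muc2 there is 7.95 and 6.79 FPKM.

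Across all protein-coding genes tested, Creb3l1 was the most like the mean profile of the 7 tested goblet cell genes, at r = 0.92 over 10 libraries. Pelo (0.90), Car8 (0.89), Mbtps1 (0.89), Rps3 (0.88), Cpne8 (0.87) and Smo (0.86) were among the closest. The profiles were centred but not scaled, so Tff3, with the widest range (0.0876 to 27.5 FPKM), weighed most in the mean. Creb3l1 had r = 0.84 with Tff3 and 0.29 with Muc2. Mbtps1 encodes the site-1 protease, which cuts membrane-bound transcription factors, and Smo the Hedgehog signal transducer. The most opposite were the mitochondrially encoded mt-Nd2 (-0.93) and mt-Cytb (-0.89), with Uhmk1 (-0.89) and Zbtb8os (-0.88). Car8, a carbonic anhydrase relative without enzyme activity, was 21.2 and 19.1 FPKM in the third pair and 8.50 and 8.46 FPKM in the fifth.

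Promoter sequences were compared because Muc2 and Agr2 correlated over the 10 libraries, by a value that leaned on the first pair. Fcgbp and Spdef varied with the other genes. RefSeq windows of build GRCm38.p6 matched 6 of the 10 symbols, Muc2, Fcgbp, Agr2, Spdef, Atoh1 and Reg4, and the 250 bases before the start of transcription are shown 5′ to 3′ for 4 of them, with E-boxes (CANNTG, the core that factors of the Atoh1 family bind) in capitals. Muc2 is at chr7:141690090-141690339, plus strand. Agr2 is at chr12:35992675-35992924, plus strand. Fcgbp is at chr7:28070986-28071235, plus strand. Spdef is at chr17:27728952-27729201, minus strand.
Muc2: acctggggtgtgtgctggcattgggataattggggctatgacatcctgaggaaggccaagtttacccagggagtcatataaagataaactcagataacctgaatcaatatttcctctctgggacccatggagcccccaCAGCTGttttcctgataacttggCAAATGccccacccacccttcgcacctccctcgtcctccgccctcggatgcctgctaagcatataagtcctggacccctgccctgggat
Agr2: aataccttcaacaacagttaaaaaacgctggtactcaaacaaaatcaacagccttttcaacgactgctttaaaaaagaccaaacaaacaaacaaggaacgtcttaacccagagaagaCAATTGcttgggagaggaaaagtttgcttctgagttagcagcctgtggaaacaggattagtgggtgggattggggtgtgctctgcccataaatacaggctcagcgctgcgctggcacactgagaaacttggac
Fcgbp: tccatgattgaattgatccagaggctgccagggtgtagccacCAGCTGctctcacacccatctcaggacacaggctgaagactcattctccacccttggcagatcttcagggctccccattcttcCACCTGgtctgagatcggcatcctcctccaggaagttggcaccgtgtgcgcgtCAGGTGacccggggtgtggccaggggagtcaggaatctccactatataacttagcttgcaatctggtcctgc
Spdef: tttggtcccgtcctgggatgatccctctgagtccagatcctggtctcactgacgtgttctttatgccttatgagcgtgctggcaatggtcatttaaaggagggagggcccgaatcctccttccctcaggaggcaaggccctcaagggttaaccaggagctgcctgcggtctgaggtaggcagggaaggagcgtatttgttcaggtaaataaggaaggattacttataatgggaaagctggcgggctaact
The Muc2 window held CAGCTG at 112 and CAAATG at 89 bases before the start, and the Agr2 window held CAATTG at 133. The Fcgbp window held CAGCTG at 208, CACCTG at 125 and CAGGTG at 72 bases before the start, and the Spdef window held no E-box. Searched on both strands, CANNTG stood in 4 of the 6 windows and in 66.0% of all 27025 windows of the same length, and CAGCTG, which is 1 form of it, in 2 of 6 against 12.8%. The letters GGAA, the usual core of Ets family sites, stood in 5 of 6 against 93.4%, and GGTCA, part of a nuclear receptor site, in 2 of 6 against 34.9%. No form of site particular to Spdef was searched. These counts describe letters in a window and are not evidence of binding.

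Among genes around the goblet programme, limma on all 10 libraries also called none, with or without pairs. With pairs as a block and the first pair left out, limma called Nlrp6 (adjusted p = 0.0472). Of 26 other goblet cell genes 12 were tested, 7 had a log2 fold change above 0 and 5 below, their median was 0.01, and 0 were called by limma with or without pairs. By unadjusted p 0 of the 12 passed 0.05 without pairs (1.51% of all genes) and 2 with them (10.6% of all genes), Rep15 and Nlrp6. Klf4, a factor of goblet cell differentiation, was 36.5 ± 14.2 FPKM with vehicle and 35 ± 8.59 FPKM with WY-14643 (SD, n = 5 each). Galnt12, which starts O-glycan chains, was 43.6 ± 16.7 and 44.4 ± 16.2 FPKM, and Foxa3, a forkhead factor of goblet cells, 8.32 ± 1.59 and 8.36 ± 1.41 FPKM. Nlrp6, an inflammasome sensor tied to mucus release, was higher with WY-14643 in 5 of 5 pairs, with means of 8.43 ± 7.77 and 12.7 ± 9.23 FPKM and a difference of 0.64 on the log2 scale. Its limma adjusted p was 0.0831 with pairs as a block, and it was called by voom with pairs (adjusted p = 0.0128), which called 1.4% of all genes higher and 0.36% lower. Tff1 was listed at 0 in all libraries, and Retnlb, Best2, Muc5b and Muc6 did not exceed 0.168 FPKM in any.

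Of 30 Notch pathway and secretory fate genes 19 were tested, 6 had a log2 fold change above 0 and 13 below, and 0 were called by limma or voom with pairs or by limma without them (median -0.04). By unadjusted p 0 passed 0.05 without pairs (1.51% of all genes), and 2 of 19 passed with them, about the 10.6% of all genes that did. Hes1, the Notch target that represses Atoh1, was 32.3 ± 5.32 FPKM with vehicle and 30.2 ± 5.02 FPKM with WY-14643. Elf3, an Ets family factor of the intestinal epithelium, was 133 ± 38.6 and 136 ± 20.9 FPKM, and Sox9, a progenitor factor, 35.4 ± 10.7 and 35.5 ± 12.6 FPKM. Rbpj, the DNA-binding partner of Notch, was 8.53 ± 1.05 and 7.53 ± 0.920 FPKM and lower in 4 of 5 pairs, with a limma adjusted p of 0.378 with pairs as a block. The ligand Dll1, made by secretory progenitors, was 0.617 ± 0.107 and 0.722 ± 0.224 FPKM.

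Folding and cross-linking genes were abundant. Of 24 listed, 23 were tested, 8 had a log2 fold change above 0 and 15 below, the median was -0.01 and 0 were called by limma or voom with pairs or by limma without them. By unadjusted p 0 passed 0.05 without pairs (1.51% of all genes), and 2 of 23 passed with them, a share below the 10.6% of all genes. P4hb, a disulfide isomerase, was 210 ± 27.8 FPKM with vehicle and 220 ± 37.9 FPKM with WY-14643, and the chaperone Hspa5 148 ± 44.2 and 150 ± 61.9 FPKM. Hspa5 had r = -0.86 with Muc2 over the 10 libraries. It was highest in its groups in the first pair (208 and 254 FPKM), where Muc2 was lowest. That r was not computed without the first pair. Of the 26 mucin O-glycosylation genes 24 were tested, 11 had a log2 fold change above 0 and 13 below (median -0.02), and 0 were called by limma in either fit. By unadjusted p 0 passed 0.05 without pairs (1.51% of all genes) and 5 with them (10.6% of all genes). Those 5 were St6galnac6, Slc26a2, Galnt4 and Galnt7, higher in 5 of 5 pairs, and Galnt1, which starts O-glycan chains and was lower in 5 of 5. St6galnac6, a sialyltransferase, was 3.49 ± 1.27 and 5.28 ± 1.69 FPKM, higher in 5 of 5 pairs, with a limma adjusted p of 0.0556 with pairs as a block. Slc26a2, a sulfate transporter, was 24.7 ± 6.59 and 29.5 ± 6.79 FPKM, also higher in 5 of 5 pairs, with a limma adjusted p of 0.115 with pairs. Voom with pairs called both higher, at adjusted p = 0.00184 and 0.0101.

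Markers of neighbouring cell types were set beside these genes. Of the 14 Paneth and deep crypt secretory genes 8 were at 0 in all libraries, the sum ranged from 19.7 to 61.0 FPKM with vehicle and from 20.5 to 46.7 FPKM with WY-14643, and the 3 tested genes had a median of -0.21. Those 3 were Mmp7, Itln1 and Cd24a. Most of the sum was Cd24a, at 9.32 to 49.2 FPKM, and Mmp7, at 5.82 to 11.1 FPKM. Lyz1 did not exceed 0.760 FPKM in any library, and the 8 genes at 0 included Lyz2 and the listed defensin genes. Enteroendocrine genes, another secretory class, summed to 0.144 to 2.39 FPKM with vehicle and 0.0774 to 2.17 FPKM with WY-14643, with 0 of 17 reaching the test. Absorptive colonocyte genes had a median log2 fold change of 0.25 over 15 tested (0.12 to 0.63 when 1 library was left out), with 12 above 0 and 3 below and 0 called by limma in either fit. By unadjusted p 0 of them passed 0.05 without pairs (1.51% of all genes) and 7 with them (10.6%), and voom with pairs called 2, both higher, where it called 1.4% of all genes higher and 0.36% lower. Proliferation genes had a median of 0.06 over 14 tested (-0.35 to 0.39 when 1 library was left out), stem cell genes -0.01 over 9 (-0.082 to 0.10) and tuft cell genes -0.13 over 2. Of the membrane mucins, which coat absorptive cells, 4 were tested with a median of -0.02 (-0.37 to 0.27 when 1 library was left out), and Muc13 was 25.6 ± 19.1 FPKM with vehicle and 23.4 ± 12.6 FPKM with WY-14643. By unadjusted limma p with pairs, 1 of 4 membrane mucins (Muc4), 1 of 3 Paneth genes (Mmp7) and 1 of 9 stem cell genes (Lgr5) passed 0.05. Of all genes 10.6% did, and 0 of the proliferation and tuft cell genes. Muc4 and Lgr5 were lower in 5 of 5 pairs, as were 6.09% of all genes. Whether the makeup of the cultures plays a part in the Muc2 and Clca1 values was not tested.

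**Figure D5:**
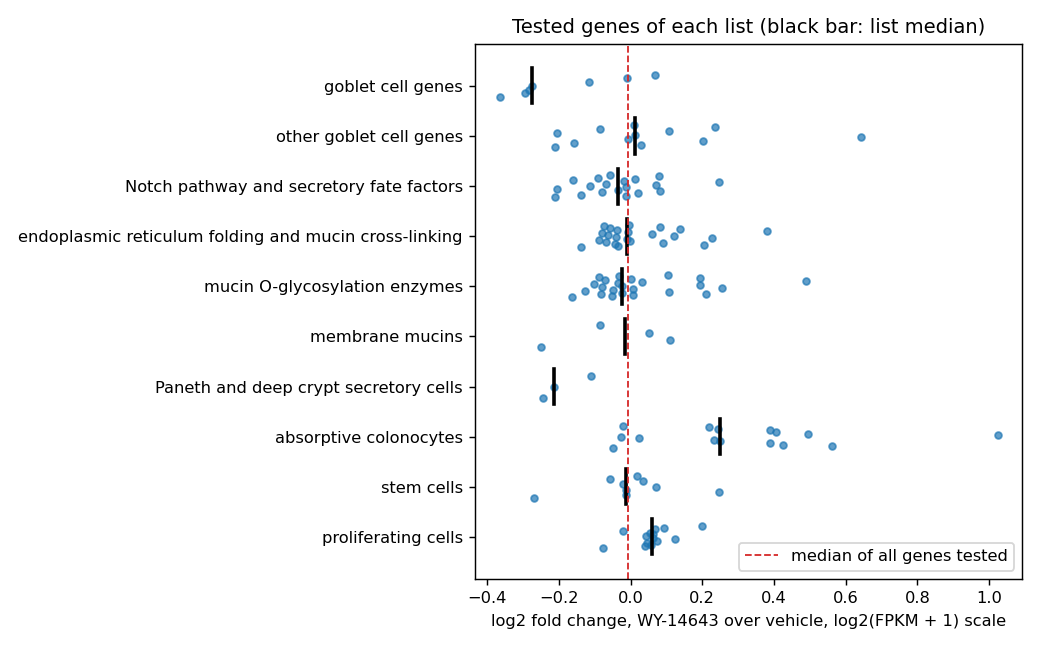
Log2 fold change of WY-14643 over vehicle for every tested gene of the 10 lists with at least 3 tested genes, 1 point per gene, with a black bar at the list median and a dashed line at the median of all genes. The 7 goblet cell genes have a median of -0.27 and the absorptive colonocyte genes 0.25, against -0.01 over all 13607 genes tested, and leaving out 1 library moved them from -0.40 to 0.029 and from 0.12 to 0.63.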

How the data were processed

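The authors deposited 1 table of FPKM values for 56748 genes in 10 libraries, and the submitters' processing notes name build mm39, HISAT2 2.0.5 and featureCounts 1.5.0-p3. Annotation release, strandedness and treatment of multiply mapped reads were not given in the sources used here. Reads could therefore be shared where genes overlap (Zg16 with Gm44939), and perhaps between Muc3 and Muc3a, whose sequences were not compared. The deposited gene lengths were used as another column of that table. FPKM times length, divided by the smallest such value of a library, was whole for 100% of values above 0 (tolerance 0.01), which recovered the reads used for depth, intervals and the voom alternative.

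Groups came from the treatment in the labels. Genes with a mean of at least 0.5 FPKM (13607) were compared by limma 3.58.1 in R 4.3.3 on log2(FPKM + 1), with a mean-variance trend, robust priors, Benjamini-Hochberg adjustment over all of them and a threshold of 0.05. This scale understates changes of low genes. The labels share no replicate numbers, so the planned fit has no pairs. The fit with pairs as a block is an alternative, and its pairs rest on the correlations in the data and on the order of the names. Other alternatives changed the pseudocount (0.1), filter, scaling and test, weighted the libraries or left libraries out. Fits were tested on simulated data. The members and lists were chosen with earlier results of these data known. From each list the text names some of the most abundant genes and those with the smallest p, from the likeness ranking the leading genes, and others where a result turned on them. Some genes of these rules are not reported here. Python 3.11.15 with matplotlib 3.10.9 drew the figures.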

Additional observations from a re-analysis of the deposited data

Results flagged for a closer look

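Muc2 in WY-14643 replicate 6 (0.665 FPKM, from 147 reads) stood apart from the other 4 WY-14643 libraries (4.03 to 6.79 FPKM). On the log2(FPKM + 1) scale its gap to the nearest library was 0.717 of the group's range, above Dixon's 95% critical value of 0.71 for 5 samples. It was the 1 group of 20 examined (10 genes in 2 groups) that passed, and chance gives about 1 in 20. Its partner, vehicle replicate 1, was also the lowest of its group, at 1.07 FPKM. Without WY-14643 replicate 6 the log2 fold change of Muc2 without pairs was 0.029.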

How the results depend on the processing

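None of the 7 tested goblet cell genes passed the threshold in any alternative run with them. With the pairs as a replicate block, the count over all genes was 39 higher and 4 lower, against 0 and 0 without pairs, and no call of a goblet cell gene changed. The block gave 37 and 3 with a pseudocount of 0.1, 2 higher without the filter on low levels, and 190 and 49 with voom on the recovered reads. These 3 settings were added after seeing the data. Library weights without pairs gave 18 and 3. Leaving out 1 library gave 0 to 2 higher and 0 lower, and leaving out pairs 1 to 5 in turn under the block gave 27, 3, 2, 12 and 30 higher and 6, 0, 0, 1 and 3 lower. Among lists, matched voom called 1 other goblet cell gene (Nlrp6), 3 glycosylation genes (St6galnac6, Slc26a2 and Galnt4), 2 absorptive genes (Lypd8 and Fabp2) and 1 stem cell gene (Lgr5), and the block called 0 to 1 other goblet cell gene when a pair was left out (Nlrp6 without the first pair).

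Muc2 ranged from -0.77 to 0.029 when 1 library was left out and from -0.44 to -0.29 when 1 pair was left out under the block. Without WY-14643 replicate 6 the signs of Muc2 (0.029), Agr2 (0.017), Spink4 (0.036) and Zg16 (0.090) turned. In the same order of libraries and pairs left out, Clca1 ranged from -0.59 to 0.024 (the high end without vehicle replicate 4) and -0.37 to -0.21, Agr2 from -0.46 to 0.017 and -0.41 to -0.10, and Tff3 from -0.89 to 0.37 and -0.38 to -0.15. Tff3 was 0.15 when vehicle replicate 3 was left out and 0.37 when WY-14643 replicate 10 was. Fcgbp ranged from -0.079 to 0.16 and -0.019 to 0.21, turning without vehicle replicate 5, WY-14643 replicate 8 or the third pair, Spink4 from -0.35 to 0.036 and -0.23 to 0.026, turning also without the first pair, and Zg16 from -0.34 to 0.19 and -0.40 to 0.21. Under the block Zg16 was 0.11, 0.021 and 0.0017 without the pairs 2, 4 and 5. Zg16 also turned to 0.71 with library weights and 0.19 with matched voom, and Spink4 to 0.045 with library weights. The median over the 7 genes ranged from -0.40 to 0.029 when 1 library was left out and from -0.37 to -0.10 when 1 pair was. The cause of these reversals was not tested. Few reads limit Spdef, Reg4, Atoh1, Spink4 and Zg16, for which only large differences could be seen at this depth. They also limit Tff3 in the fifth pair, with 5 reads in vehicle and 1 in WY-14643.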
